A study of Mus musculus with 64 samples.

Results

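Blm, a DNA helicase of recombination repair, was followed together with its partners through a transposon insertion screen in mice. The 9 genes were Blm, Top3a, Rmi1, Wrn, Recql, Brca1, Palb2, Brca2 and Atm, chosen by name, so that a line of the deposited table belonged to them where its gene column named 1 of them. They are 9 of 15716 distinct names in the gene column for the insertions kept, from which cells that read as dates were not taken out. Of 83 such lines, 1 line in Wrn in a PB tumour was left out because no TTAA lay within 5 bp, which left 82 insertions in 45 of 64 samples, among 299625 insertions in all.

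The study mapped transposon insertions in tumours of mice, to find genes in which they accumulate. PiggyBac (PB) inserts at TTAA and Sleeping Beauty (SB) at TA, and the junctions with the genome were amplified by PCR and sequenced. For PB there were 30 tumours and 12 tails and for SB 11 tumours and 11 tails, with 1 sample per mouse and the tails as control tissue. The tumours, described by the study as diffuse large B cell lymphomas, were taken from mesenteric masses (9 PB, 2 SB), mesenteric lymph nodes (6 PB, 2 SB), spleens (6 PB, 3 SB) and other sites (9 PB, 4 SB).

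PB mice carry the genotype label IMPB and SB mice the label IMSB. In both, a transposase knocked into Rosa26 acted constitutively on a transposon array, so that tails carried insertions as well as tumours. SB mice came from parents with the SB knock-in at Rosa26 and parents of the ITP1-C or ITP2-M transposon line, and the parents on either side were homozygous for the m3 allele of Blm. SB tumours and SB tails therefore shared the Blm m3/m3 background, and there was no group of SB mice with intact Blm. The Blm genotype of the PB mice, the transposon line of each sample and the ages are not given in the sources used here. The strain background was mixed, from C57BL/6, 129Sv and FVB. Insertion positions do not read the m3 allele, so the Blm genotype was not checked, and a difference between PB and SB cannot be told apart from any difference in it.

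The BLM helicase works in the dissolvasome with a topoisomerase and an RMI subunit, a complex that takes apart joined recombination intermediates without crossing over. Cells short of BLM exchange sister chromatids and recombine homologous chromosomes more often, and the m3 allele, a hypomorph, is used in mouse screens because such recombination can make an insertion homozygous. BRCA1, PALB2 and BRCA2 act in homologous recombination at broken DNA, and ATM signals the break, also in lymphocytes that rearrange their antigen receptor genes.

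Insertions in these genes were few in every group, and their number per sample overlapped between tumours and tails. PB tumours had 53, with a lowest, median and highest number per tumour of 0, 2 and 4 (1.77 ± 1.22, SD, n = 30). PB tails had 14, with 0, 1 and 4 per tail (1.17 ± 1.19, SD, n = 12). SB tumours had 4, with 0, 0 and 1 per tumour (0.364 ± 0.505, SD, n = 11), and SB tails 11, with 0, 1 and 2 per tail (1.0 ± 0.775, SD, n = 11). At least 1 insertion was found in 24 of 30 PB tumours, 9 of 12 PB tails, 4 of 11 SB tumours and 8 of 11 SB tails. The highest number, 4, occurred in PB tumours 3, 16 and 30 and in PB tail 4, whereas no SB tumour had more than 1.

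Samples differed in their number of insertions, from 757 to 10800 in PB tumours (median 4283.5), 2035 to 7362 in PB tails (median 3547.5), 760 to 8786 in SB tumours (median 3836) and 2537 to 7148 in SB tails (median 4361). Per 100000 insertions of the group, the genes together had 33.8 in PB tumours and 29.1 in PB tails, a ratio of 1.16 with an exact 95% interval from 0.635 to 2.27. The same rate was 9.13 in SB tumours and 21.7 in SB tails, a ratio of 0.422 with an interval from 0.0979 to 1.42. Both intervals include equality, so these pooled counts did not exclude equal rates in tumours and tails. The intervals cover counting error only and leave out the spread between samples, so they cannot decide whether the groups of samples differed. A difference in these genes together, with samples as the unit, was not tested. With insertions of at least 10 reads only, the order of the PB groups in number per sample turned, to 0.667 ± 0.758 per tumour (SD, n = 30) and 1.08 ± 0.996 per tail (SD, n = 12). At least 10 reads were reached by 36.2% of all PB tumour insertions and 71.4% of all PB tail insertions. The means per sample are not divided by the insertions kept. These genes had 20 of 56800 kept in PB tumours and 13 of 34384 kept in PB tails.

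PB tumours from the spleen had 40.6 insertions of these genes per 100000, from mesenteric masses 33.3, from mesenteric lymph nodes 32.6 and from other sites 31.0. Sample names are written in a joined or a separated form, which can mark a batch. PB tumours had 35.6 per 100000 under joined names (22 tumours) and 27 under separated names (8 tumours), and PB tails 28.1 (5 tails) and 29.9 (7 tails). SB tails had 21.2 (7 tails) and 22.6 (4 tails), and SB tumours had joined names only. The part of the name form in these values was not tested.

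Whether a gene held more insertions than its motif sites predict was examined by the study's selection test in its simplest form (TransmicronNULL). The expected number was the insertions of the chromosome in that group multiplied by the gene's share of the chromosome's TTAA or TA sites. A call required insertions in 3 or more samples that made up 5% or more of the group, and a Wald p (one-sided, Bonferroni-corrected over all genes) below 0.05. Of the 9 genes, 0 were called in PB tumours (4.85% of 22541 genes tested), 0 in PB tails (1.18%), 0 in SB tumours (0.390% of 23859 genes tested) and 0 in SB tails (0.189%). An exact Poisson test also called 0 in each group. At an unadjusted Wald p below 0.05 there were 0, 1, 0 and 1 of the genes in the same order, namely Recql in PB tails and Brca1 in SB tails, while 21.7%, 13.9%, 8.23% and 6.99% of all genes were below it. At an unadjusted exact p below 0.05 only Recql in PB tails was left, while 15.9%, 7.79%, 4.05% and 3.21% of all genes were below it.

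Summed over the 9 genes, PB tumours held 53 insertions where 46.5 were expected, a ratio of 1.14, whereas all genes had a ratio of 1.39. In PB tails the ratio was 0.998 for these genes and 1.30 for all genes. In SB tumours it was 0.359 (4 insertions, 11.1 expected) and 1.20, and in SB tails 0.936 (12 insertions, 12.8 expected) and 1.13. In PB tumours 6 of the 9 genes and 44.1% of all genes exceeded their expected number, and in SB tumours 0 of the 9 and 24.4% of all genes. The 6 depended on the expected number, since against motif sites and insertions inside genes only 2 of the 9 (Wrn and Palb2) and 36.3% of all genes exceeded it in PB tumours. The shares of all genes also include many genes that expected fewer than 1 insertion. Among genes that expected at least 1, the median ratio in PB tumours was 1.08 over 8 of the 9 and 1.21 over all 10260. In SB tumours it was 0.662 over 4 of the 9 and 1.01 over all 4128. The SB tail sum includes 1 insertion inside the RefSeq body of Recql that the gene column names Pyroxd1.

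**Figure D1:**
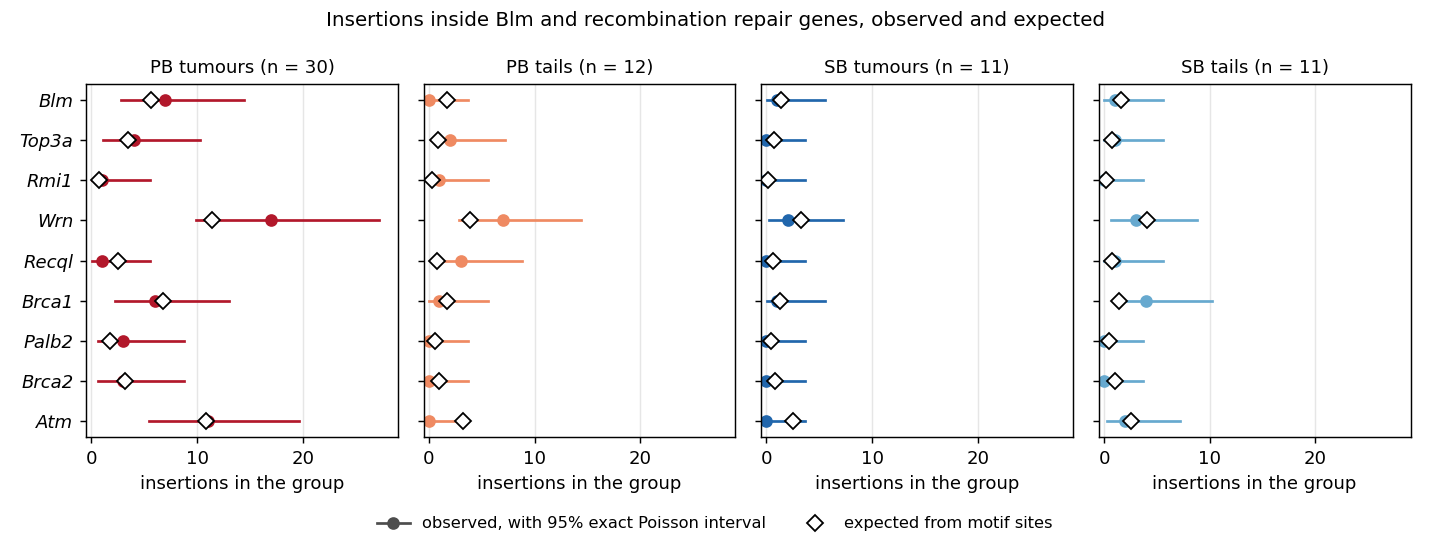
Insertions inside each gene (horizontal axis, number over all samples of the group) in the 4 groups, with the observed number as a filled point and its 95% exact Poisson interval as a bar, and the number expected from TTAA or TA sites as an open diamond. Wrn in PB tumours has the highest count, 17 where 11.4 were expected, and every interval includes the expected number.

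Blm (chr7:80454993-80535119, GRCm38, minus strand, 80.1 kb) was hit in 7 of 30 PB tumours and 0 of 12 PB tails, and in 1 of 11 SB tumours and 1 of 11 SB tails. The lowest, median and highest number per sample was 0, 0 and 1 in PB tumours and in both SB groups. The hit PB tumours were tumours 7, 8, 11, 14, 17, 18 and 20, all with joined names, from lymph nodes, mesenteric masses and a spleen. The 0 of PB tails allows up to 6.23 insertions per 100000, above the 4.46 per 100000 found in PB tumours, so a difference was not detectable. The ratio of observed to expected insertions in PB tumours was 1.23 (95% exact Poisson interval 0.496 to 2.54), and at least 18 insertions would have been needed for a call. The surroundings of Blm were denser than its chromosome in both PB groups and in SB tumours, but not in SB tails. From the insertions within 500 kb on either side, 16.6 were expected in PB tumours in place of 5.67, which gave a ratio of 0.422. In PB tails 5.81 were expected in place of 1.75, where 0 were found. The same numbers were 2.20 in place of 1.40 in SB tumours and 1.26 in place of 1.61 in SB tails.

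The Blm insertions of PB tumours had between 2 and 30 reads (median 5), and only that of PB tumour 18 had at least 10. The Blm insertions of the SB mice, whose Blm alleles were already mutant, had 28 reads in SB tumour 6 and 15 reads in SB tail 1. All 9 Blm insertions were intronic. Those of PB tumours lay between 61.0% and 96.8% of the way from the start to the end of the gene, and 3 of them in intron 22, the last. The sites of these 3 insertions, closest together of all in Blm, are given with the bases on either side, 5′ to 3′ on the plus strand of GRCm38, with the TTAA in capitals (chr7:80457557-80457586 in PB tumour 7, chr7:80457711-80457740 in PB tumour 20 and chr7:80458662-80458691 in PB tumour 11).
Blm intron 22, PB tumour 7: gaccagaagctttTTAAggtctcatgctct
Blm intron 22, PB tumour 20: tttacaaatgtctTTAAttgtgtactctgg
Blm intron 22, PB tumour 11: caaattagattacTTAAaaatccaaagtcc
The first and the second carried the transposon in the orientation opposite to Blm and the third in the same orientation.

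Top3a (chr11:60738209-60777365, minus strand, 39.2 kb), which encodes the topoisomerase of the dissolvasome, had 4 insertions in 4 PB tumours, 2 in 2 PB tails, 0 in SB tumours and 1 in an SB tail. No sample had more than 1. The PB ratio of tumour to tail rates was 0.613 (exact 95% interval 0.0879 to 6.78). Of the 7 Top3a insertions, 4 lay within 5 kb of the gene start, all of them PB, and 2 of these in the 5′ untranslated region, at 169 bp from the start in PB tumour 10 and at 104 bp in PB tail 2. The other 2 were in intron 1, at 727 bp in PB tumour 3 and at 1084 bp in PB tail 3. Tumours and tails thus both had insertions at the Top3a start.

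Rmi1 (chr13:58402248-58411149, plus strand), whose product holds the dissolvasome together, is the shortest of the genes with 8.90 kb and 60 TTAA sites. It had 1 insertion in PB tumour 19, in the 3′ untranslated region with 28 reads, 1 in PB tail 4, in intron 4 with 7 reads, and 0 in both SB groups. The expected number was 0.761 in PB tumours, 0.251 in PB tails, 0.190 in SB tumours and 0.193 in SB tails, so a gene of this size was measured too thinly for a comparison. Within 10 kb upstream of Rmi1, PB tumours had 8 insertions in 7 samples, all named for the neighbouring Hnrnpk, a gene noted after its values were seen, and the other groups had 0. With the body of Rmi1 extended by 10 kb on both sides, its ratio in PB tumours was 3.23 and it was not called.

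Wrn (chr8:33234373-33385527, minus strand), the helicase gene mutated in Werner syndrome, is the longest of the genes with 151.2 kb and 1122 TTAA sites, and had the most insertions, 29 in 26 samples. PB tumours had 17 in 16 of 30 samples, with 0, 1 and 2 as the lowest, median and highest number per tumour (0.567 ± 0.568, SD). PB tails had 7 in 5 of 12 samples, with 0, 0 and 2 per tail (0.583 ± 0.793, SD). SB tumours had 2 in 2 of 11 samples and SB tails 3 in 3 of 11. The highest PB numbers, 2 each, were in PB tumour 3 and in PB tails 4 and 8, so tumours and tails covered the same range.

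Per 100000 insertions, Wrn had 10.8 in PB tumours and 14.5 in PB tails, a ratio of 0.745 (exact 95% interval 0.294 to 2.12). The ratio of observed to expected insertions was 1.49 in PB tumours (17 where 11.4 were expected, interval 0.866 to 2.38, one-sided Wald p = 0.0511, unadjusted) and 1.82 in PB tails (interval 0.732 to 3.75). In SB tumours it was 0.609 (0.0738 to 2.20) and in SB tails 0.741 (0.153 to 2.17). A call in PB tumours needed 28 insertions. Of 1315 genes whose expected number in PB tumours was within 1.5 times that of Wrn, 217 were called there, and their median ratio was 1.21. All 29 Wrn insertions were intronic, and 14 had the orientation of the gene.

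By the ratio of observed to expected insertions over the 4 groups, on a log2 scale with a pseudocount of 0.5, the genes of like size nearest to Wrn were Scmh1 (Euclidean distance 0.157), Asph (0.225) and Tbcd (0.295). Scmh1 had 15 insertions in PB tumours (10.5 expected), 6 in PB tails (3.35), 2 in SB tumours (2.97) and 2 in SB tails (2.90). Over only 4 groups with counts this low, such a likeness describes the numbers and no more.

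Recql (chr6:142350342-142387087, minus strand, 36.7 kb), a RecQ helicase gene like Blm and Wrn, was the only gene of the set with a higher total of insertions in the 12 PB tails than in the 30 PB tumours. Per 100000 insertions, the rate was also higher in PB tails for Top3a (4.16 against 2.55), Rmi1 (2.08 against 0.637) and Wrn (14.5 against 10.8). It was lower there for the remaining genes. Recql had 3 insertions in 3 of 12 PB tails (tails 4, 6 and 9), 1 in 1 of 30 PB tumours (tumour 17), and 0 in both SB groups. The PB ratio of tumour to tail rates was 0.102, with an exact 95% interval from 0.00195 to 1.27 that includes equality. In PB tails the ratio of observed to expected insertions was 3.90 (3 where 0.768 were expected, interval 0.805 to 11.4, one-sided Wald p = 0.00916, unadjusted), which did not pass Bonferroni correction. All 4 Recql insertions lay within 5 kb of its start.

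Beyond the ends of Recql, PB tails had 1 insertion within 10 kb upstream and 5 within 10 kb downstream, in 4 samples, which the gene column names Golt1b, Pyroxd1 or Intergenic. With these included, in a gene extended by 10 kb on both sides, Recql had a ratio of 7.72 in PB tails and was called, and in PB tumours a ratio of 0.774 without a call. PB tail 9 alone held 1 insertion in Recql, 1 upstream and 2 downstream. The insertion of PB tumour 17 was at the same TTAA as that of PB tail 4, in intron 2 at 678 bp from the gene start (chr6:142386393-142386422, plus strand, TTAA in capitals), on the opposite strand.
Recql intron 2, PB tail 4 and PB tumour 17: agataagccctgaTTAAagagtaaggacaa

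Brca1 (chr11:101488764-101551955, minus strand, 63.2 kb), which acts early in repair by recombination, had insertions in all 4 groups. PB tumours had 6 in 5 of 30 samples, with 0, 0 and 2 as the lowest, median and highest number, and both insertions of the highest sample were in PB tumour 1, a mesenteric mass. PB tails had 1 in 12 samples, SB tumours 1 in 11 and SB tails 4 in 4 of 11 samples, tails 1, 3, 5 and 6, all with joined names. Brca1 was thus hit in more SB tails than SB tumours, but the ratio of tumour to tail rates, 0.290, had an exact 95% interval from 0.00588 to 2.93.

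In SB tails the ratio of observed to expected Brca1 insertions was 2.80 (4 where 1.43 were expected, interval 0.763 to 7.17). The one-sided Wald p was 0.0197 and the exact Poisson p was 0.0569, both unadjusted. In PB tumours the ratio was 0.881 (0.323 to 1.92). The 4 insertions of SB tails all had the orientation opposite to Brca1, and that of SB tail 6 lay in the 3′ untranslated region. Brca1 had 4 further PB tumour insertions within 10 kb upstream, named for its neighbour Nbr1, which was also noted after its values were seen.

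Palb2 (chr7:122107262-122132946, minus strand, 25.7 kb), the bridge between BRCA1 and BRCA2, and Brca2 (chr5:150522621-150570147, plus strand, 47.5 kb), which PALB2 brings to breaks, were hit only in PB tumours, with 3 insertions in 3 samples each. The other 3 groups had 0, which for PB tails allows up to 6.23 per 100000 insertions, above the 1.91 found for each gene in PB tumours. All 3 Palb2 insertions (PB tumours 4, 9 and 12) and all 3 Brca2 insertions (PB tumours 3, 5 and 20) were in tumours with joined names and intronic. They had 4 to 22 reads in Palb2 and 5 to 9 in Brca2, so no Brca2 insertion reached 10 reads.

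PB tumours 3 and 20 shared a TTAA in intron 24 of Brca2 (chr5:150561239-150561268, plus strand, TTAA in capitals), in opposite orientations and with 5 reads in each tumour. These were 8.74e-05% of the reads of PB tumour 3, the sample with the most reads, and 0.00336% of those of PB tumour 20.
Brca2 intron 24, PB tumours 3 and 20: gctgccttgtttcTTAAtaaaaagcaattc
With the shared site in Recql, 2 of 65 PB positions in these genes were found in more than 1 sample (3.08%), as were 4.96% of all PB positions in genes. Of 15 SB positions in these genes 0 were shared, as were 0.672% of SB positions in genes.

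Atm (chr9:53437122-53536671, minus strand, 99.5 kb), the kinase gene, had 11 insertions in 7 of 30 PB tumours, 0 in 12 PB tails, 0 in 11 SB tumours and 2 in 2 of 11 SB tails. The lowest, median and highest number per PB tumour was 0, 0 and 3 (0.367 ± 0.765, SD, n = 30). PB tumour 30, a lymph node, had 3, PB tumours 6 and 16 had 2 each, and tumours 5, 12, 22 and 29 had 1. Joined names accounted for 7 of the 11 and separated names for 4, and neither the 5 joined nor the 7 separated PB tails had any.

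The number of Atm insertions in PB tumours was close to the 10.8 expected from its TTAA sites, a ratio of 1.02 (0.507 to 1.82). In PB tails 3.27 were expected and 0 found, in SB tumours 2.49 and 0, and in SB tails 2.54 and 2. The PB tumour rate of Atm, 7.01 per 100000, lay above the 6.23 that the 0 of PB tails allows. It was at least 1.12-fold higher against a floor of 3 insertions over the tails, with the tumour count taken as exact. PB tumour 30 held 3 of the 11, and without it the rate lay below 6.23 (mean 0.276 per tumour in place of 0.367). With the counting error of both groups, the lower limit of the exact 95% interval of the ratio was 0.770, so equality was not excluded. The same limit was 0.442 for Blm and 0.127 for Palb2 and for Brca2. The 3 insertions of PB tumour 30 had 23, 9 and 7 reads and did not share an orientation. That with 23 reads was the only insertion in coding sequence among the 82, in exon 49 of 63 (exons of all transcripts merged), opposite to Atm (chr9:53456536-53456565, plus strand, TTAA in capitals).
Atm exon 49, PB tumour 30: tctttggctctttTTAAgagagtttgcttg

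**Figure D2:**
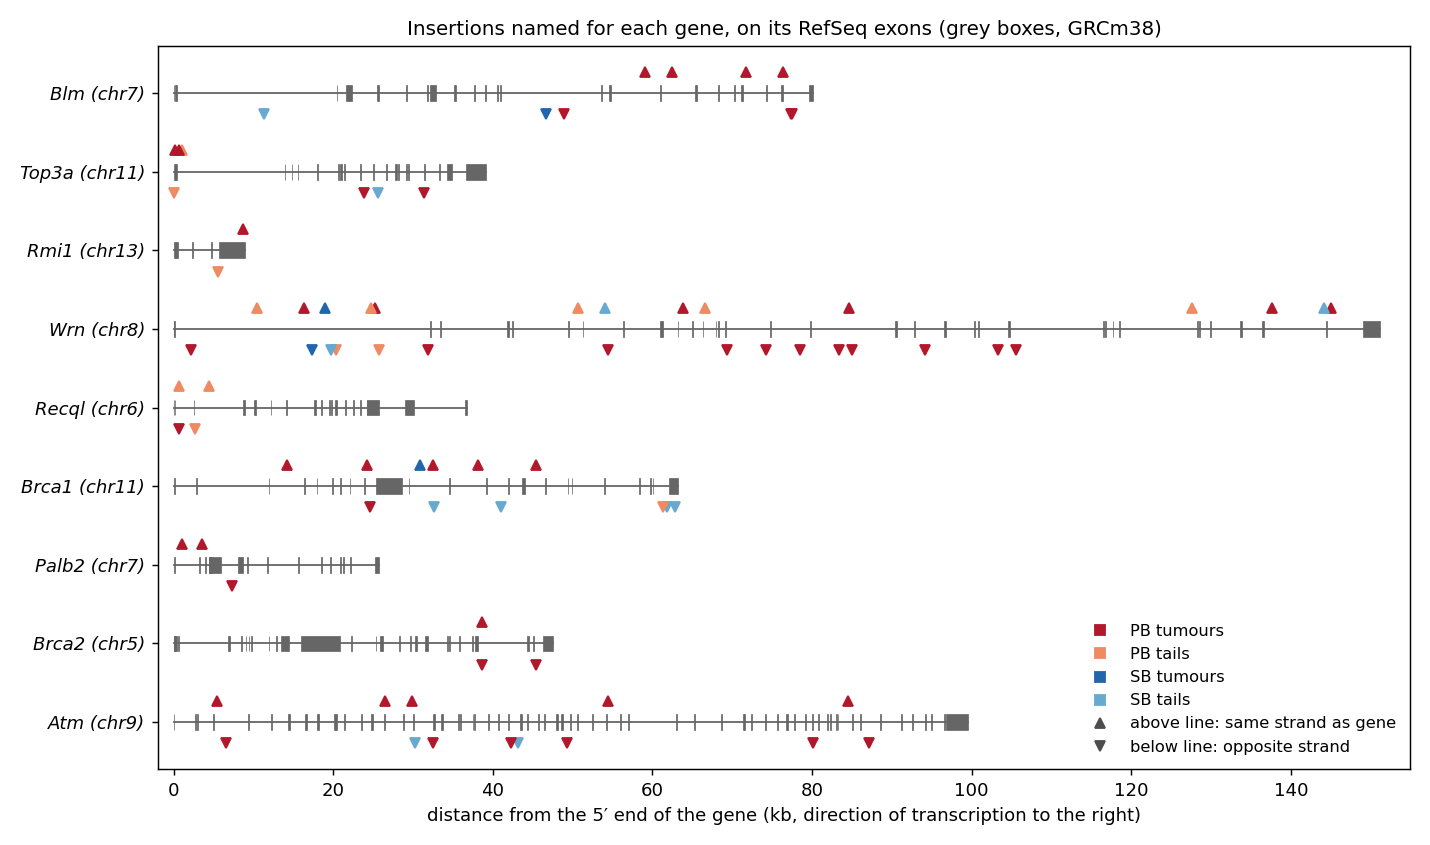
Positions of the 82 insertions on the RefSeq exons of each gene (grey boxes, GRCm38), by distance in kb from the 5′ end, with colours for the 4 groups and triangles above the line for the orientation of the gene and below it for the opposite orientation. Insertions of Wrn and Atm are spread over the gene, all 4 of Recql lie within 5 kb of its start, and those of PB tumours in Blm lie beyond 61.0% of its length.

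Tumours were compared with tails gene by gene on insertions per sample, with edgeR's quasi-likelihood test and Benjamini-Hochberg adjustment over all genes with at least 10 insertions in the system. For PB, 3298 genes could be tested, among them Wrn and Atm, and 0 of these 2 were called (4.46% of the genes tested). At an unadjusted p below 0.05 there was 1, Atm, beside 651 of all 3298 genes (19.7%). Fisher's exact test of samples hit also called 0, and DESeq2, which gave neither gene an adjusted p, had 0 at an unadjusted p below 0.05. Wrn had a log2 change from tails to tumours of -0.33 with an SE of 0.55 (adjusted p = 0.816, edgeR), with insertions in 16 of 30 tumours and 5 of 12 tails. Atm, hit in 7 of 30 tumours and 0 of 12 tails, had an unadjusted p of 0.0153 and an adjusted p of 0.128 (edgeR), and did not pass. All 11 of its PB insertions were in tumours, so it reached the minimum of 10 through tumours alone and its p-value is no support for a difference. Blm, Palb2 and Brca2, with 7, 3 and 3 PB insertions, also all in tumours, fell below the minimum. With no minimum of insertions all 9 genes were tested and 0 called, and Atm (p = 0.0153) and Recql (p = 0.0296) were below 0.05 before adjustment by edgeR, with adjusted p-values of 0.368 and 0.479, beside 1069 of 13791 genes below it.

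For SB, 1121 genes had at least 10 insertions and 9 were called, but none of the genes described here reached that minimum, so 0 could be called (0.803% of the genes tested). Without the minimum, edgeR tested 5 of them and called 0, with 0 at an unadjusted p below 0.05, and neither DESeq2 nor Fisher's exact test, which kept the minimum, had any of them to test. Whether the change from tails to tumours differed between PB and SB was tested as an interaction over all 64 samples. Wrn, Brca1 and Atm were among the 4280 genes tested and 0 were called by edgeR (0% of the genes tested). Atm alone was below an unadjusted p of 0.05 (p = 0.00760, adjusted p = 0.403, edgeR), with insertions in 7 tumours and 0 tails of PB and in 0 tumours and 2 tails of SB, and 9.14% of all genes were below it as well. Of the 13 Atm insertions 11 were in PB tumours, so here too Atm reached the minimum only with them.

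Reads, which follow the share of cells that carry an insertion but also its amplification, placed these insertions in the middle of their samples. The 82 had between 2 and 243 reads (median 10), and 11 had at most 3. By rank of reads within the sample, their median percentile was 51.3, where 100 is the insertion with the most reads, and over all insertions in genes it was 51.0 for PB and 50.2 for SB. None was among the 10 insertions with the most reads of its sample and 1 was among the 100 with the most. That was in intron 1 of Wrn in PB tail 12, at rank 54 of 4301 with 116 reads, and its 0.0667% of the reads of that tail was the highest share of the 82.

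Among tumours, the best rank was 228 of 3947, for the Atm insertion of PB tumour 12 in intron 25 with 44 reads, or 0.0445% of the reads. The 243 reads of a Wrn insertion in PB tumour 3 came from the sample with by far the most reads, 5721832, and were 0.00425% of them. PB tail insertions had a median percentile of 68.1 (14 insertions), PB tumour insertions 45.5 (53), SB tumour insertions 69.0 (4) and SB tail insertions 50.2 (11). In Wrn the 7 PB tail insertions ran from 59.6 to 98.7, whereas the 17 of PB tumours ran from 2.79 to 94.0. Each of the 82 thus held a small part of the reads of its sample.

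**Figure D3:**
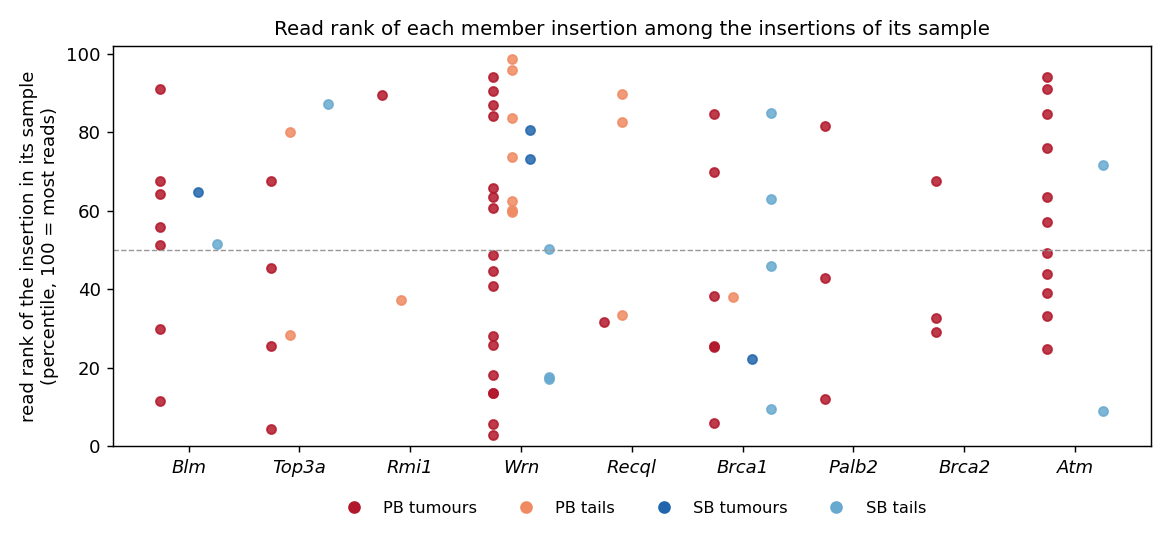
Rank of each of the 82 insertions by reads within its own sample (vertical axis, percentile, 100 for the most reads), by gene and in the colours of the 4 groups, with a dashed line at the middle. The insertions of PB tumours run from 2.79 to 94.1 and those of PB tails from 28.4 to 98.7.

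By position, 63 of the 67 PB insertions were intronic (94.0%, Wilson 95% interval 85.6 to 97.7), as were 93.5% of the TTAA sites of the genes. Of the 15 SB insertions 14 were intronic (93.3%, interval 70.2 to 98.8), as were 92.2% of the TA sites. Coding exons held 1 of 67 PB insertions (1.49%, interval 0.264 to 7.98) and 3.92% of the TTAA sites. These shares followed the make-up of the genes within their intervals.

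Within 5 kb of a gene start lay 11 of the 67 PB insertions (16.4%, interval 9.42 to 27.1), where 7.89% of the TTAA sites of these genes lie, and 16.1% of all PB insertions in genes did so. PB tumours had 6 of 53 there (11.3%, interval 5.29 to 22.6) and PB tails 5 of 14 (35.7%, interval 16.3 to 61.2), intervals that overlap. Of the 15 SB insertions 0 lay within 5 kb of a start (upper limit 20.4%), where 7.58% of the TA sites of these genes lie. Of all SB insertions in genes 8.02% did so, a share within that limit. The 11 were 4 each in Top3a and Recql, 2 in Palb2 and 1 in Wrn, so Blm, Rmi1, Brca1, Brca2 and Atm had none near the start.

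The transposon had the orientation of the gene in 34 of the 67 PB insertions (50.7%, interval 39.1 to 62.3), and in 48.6% of all PB insertions in genes. For SB it was 4 of 15 (26.7%, interval 10.9 to 52.0), and 47.0% of all SB insertions in genes. The SB interval includes the share of all genes, so the low share was not distinguishable from it.

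Other genes of recombination repair and end joining were examined in 8 lists of 60 genes in all, which include the 9. Of the 60, 4 were called by the selection test in PB tumours (4.85% of all genes), 2 in PB tails (1.18%), 0 in SB tumours (0.390%, and 0 of the 60 by the exact Poisson test) and 1 in SB tails (0.189%). At an unadjusted Wald p below 0.05 there were 14, 8, 5 and 5 of the 60 (23.3%, 13.3%, 8.33% and 8.33%) in the same order, beside 21.7%, 13.9%, 8.23% and 6.99% of all genes. The ratio of observed to expected insertions summed over the lists was 1.57 in PB tumours (all genes 1.39), 1.95 in PB tails (1.30), 0.922 in SB tumours (1.20) and 1.01 in SB tails (1.13). Without Rad51b, a long gene described below, it was 1.37 in PB tumours and 1.30 in PB tails, close to all genes. Among genes that expected at least 1 insertion, the median ratio in PB tumours was 1.17 over 46 list genes and 1.21 over all 10260, and in PB tails 0.838 over 23 and 1.11 over all 4660.

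The called genes of PB tumours were Rad51b, which acts in homologous recombination, Nbn, which recruits ATM to breaks, Mdc1, which binds marked chromatin at breaks, and Lig4, the ligase of end joining. Nbn had 12 insertions in 10 tumours (2.60 expected, 0.40 ± 0.621 per tumour, SD, n = 30), Mdc1 7 in 6 (0.723 expected) and Lig4 6 in 5 (0.612 expected). The calls of Nbn, Mdc1 and Lig4 were lost with the exact Poisson test, with Bonferroni p-values of 0.414, 0.247 and 0.973. That of Nbn (ratio 4.62) was also lost by presence per sample (ratio 4.06), with at least 10 reads (4.23) and against motif sites inside genes (3.23), and that of Lig4 without PB tumour 3, the sample with the most reads (4 insertions, 0.566 expected, ratio 7.06). In PB tails Nbn had 3 insertions, Mdc1 1 and Lig4 2. Mdc1 and Lig4 were below the minimum of 10 insertions, and without it edgeR called neither between PB tumours and tails (log2 change 0.60, SE 0.61, adjusted p = 0.617, and -0.073, SE 0.57, adjusted p = 0.952). Nbn, with insertions in 10 of 30 tumours and 3 of 12 tails, was not called between PB tumours and tails (log2 change 0.22, SE 0.63, adjusted p = 0.903, edgeR).

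Bard1, the partner that BRCA1 needs as a ubiquitin ligase, was called in PB tails with 14 insertions in 9 of 12 tails (1.97 expected), by the Wald and the exact Poisson test. PB tails had 0, 1 and 3 as their lowest, median and highest number and PB tumours 0, 0 and 2, with 15 insertions in 11 of 30 (6.64 expected) and no call. The log2 change from tails to tumours was -1.37 with an SE of 0.49, and its adjusted p of 0.0818 (edgeR) missed the threshold. Rad52, an annealing protein, was called in SB tails with 4 insertions in 3 samples (0.384 expected, ratio 10.4). It was not called by the exact Poisson test, and its call was also lost by presence (ratio 7.95), with at least 10 reads (7.38), against motif sites inside genes (9.34) or the 500 kb on either side (9.48), and with the gene extended by 10 kb (6.45).

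Rad51b was the list gene with the most insertions and was called in both PB groups by both tests on insertions inside its RefSeq body. Inside this body of 517.4 kb (chr12:79297282-79814690), PB tumours had 107 insertions in 28 of 30 samples (36.2 expected, ratio 2.95, interval 2.42 to 3.57) and PB tails 70 in 11 of 12 (11.1 expected, ratio 6.31, interval 4.92 to 7.98). Insertions around Rad51b were dense too, since those within 500 kb gave 79.4 expected in PB tumours, a ratio of 1.35 at which the call was lost, whereas PB tails had a ratio of 3.50 and were called. The gene column names Rad51b for fewer of them, 46 in PB tumours (ratio 1.27, not called) and 37 in PB tails (ratio 3.34, called).

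In these, PB tumours had 0, 1 and 6 as the lowest, median and highest number (1.53 ± 1.46, SD, n = 30) and PB tails 0, 3 and 9 (3.08 ± 2.27, SD, n = 12), so the groups overlapped. The log2 change from tails to tumours was -1.33 with an SE of 0.37 (adjusted p = 0.0147, edgeR), with insertions in 23 of 30 tumours and 11 of 12 tails, and Rad51b was the only gene of the lists called between tumours and tails. By edgeR it was also called with TMM factors (log2 change -1.28, adjusted p = 0.0267), with the RefSeq body (-1.06, adjusted p = 0.0133) and without the PB tumour with the most reads (-1.35, adjusted p = 0.0141). The call was lost, with a log2 change of like size, with DESeq2 (-1.06, adjusted p = 0.0615) and, by edgeR, among joined names (-1.12, adjusted p = 0.287), among separated names (-1.52, adjusted p = 0.156), with no minimum of insertions (-1.33, adjusted p = 0.0919) and with insertions of at least 10 reads (-1.25, adjusted p = 0.0819). It was also lost by Fisher's exact test of samples hit (adjusted p = 0.870). The log2 value there, -0.22, compares shares of samples hit without regard to insertions per sample, so it is not comparable in size. The interaction with the system was not past the threshold (adjusted p = 0.725, edgeR), with 3 SB tumour and 3 SB tail insertions named for Rad51b. Inside the RefSeq body SB tumours had 4 insertions and SB tails 11. Counted in this way, the SB log2 change was -1.02 with an SE of 0.70, without a call (adjusted p = 0.688, edgeR). Of the 16 list genes tested for PB, 10 had a positive log2 change, with a median of 0.21 compared to 0.20 over all genes tested.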

How the data were processed

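Insertion sites of 64 samples were analysed. The authors deposited a table of 385883 lines, each with the position, strand, gene name and raw read count of an insertion, not normalized, with positions on mm10 (GRCm38). The junctions came from splinkerette PCR sequenced on an Illumina MiSeq. The aligner, the insertion caller and the read filters are not given in the sources used here, and no line had fewer than 2 reads. The reads carry no molecular identifiers and do not count independent molecules, and intervals and floors cover counting error only. A further per-sample column (1), a normalized coverage, was not used.

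A position within 5 bp of a motif, TTAA for PB and TA for SB, was placed on the nearest one and counted 1 time per sample, and other positions were left out. Chromosome 14, taken as the donor, and the sex chromosomes were left out. In the gene column, 50.8% of lines read Intergenic, and 423 lines held a date in place of a gene name and stayed out of the tests by gene name. Selection tests and annotations used curated RefSeq gene bodies of GRCm38, and counts per gene and tests between tumours and tails used the gene column.

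edgeR's quasi-likelihood test (version 4.0.16, R 4.3.3) took the insertions of a sample as library size. The SE given with its log2 changes was worked back from the test, as the absolute log2 change divided by the square root of the F statistic. Python 3.11.15, numpy 2.4.6, pandas 2.3.3, scipy 1.17.1, matplotlib 3.10.9, samtools 1.23.1 and, as an alternative, DESeq2 1.42.0 were used. Selection and edgeR tests were also run on simulated data, of which no result is given or used here. Exact Poisson, exact conditional and Wilson intervals are at 95%, and a count of 0 was given a floor of 3 insertions.

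The genes named are the 9 members, every gene of the 8 repair lists that was called, Rad51b, and the 3 genes of like expected number nearest to the member with the most insertions. The members and lists were chosen with earlier results of these data known. Any other gene was named after its values had been seen. Alternatives covered the test, the correction, presence per sample, a minimum of 10 reads, other expected numbers and gene regions, the gene assignment, normalization, the minimum of insertions, the name form and left-out samples. Those without the PB tumour with the most reads and with separated names only were added after seeing the data, as were the alternatives of the selection test for tails and for the list genes called, and the sum of the lists without Rad51b.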

Additional observations from a re-analysis of the deposited data

How the results depend on the processing

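Of 43 alternative counts of called members, 42 were 0 and 1 was not. The exception was the selection test in PB tails with each gene extended by 10 kb on both sides, an alternative added after seeing the data, which called 1 member (Recql, ratio 7.72). The extension adds insertions named for neighbours. A further 8 could not be made because no member had an adjusted p, between PB groups with DESeq2 and with separated names only, and between SB groups with TMM factors, DESeq2, Fisher's exact test, at least 10 reads, the RefSeq body and joined names. By presence per sample Rad51b could not be called in PB tumours or PB tails even with every sample hit. Insertions of members per sample fell with at least 10 reads, from 1.77 to 0.667 in PB tumours, 1.17 to 1.08 in PB tails, 0.364 to 0.182 in SB tumours and 1.0 to 0.636 in SB tails. Without the PB tumour with the most reads (5721832 reads) the mean of PB tumours was 1.69.

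Log2 changes that turned their sign against the main setting belonged to Wrn, which was not called in any setting. Its log2 change between PB tails and tumours, -0.33, was 0.24 with joined names only, and its interaction with the system, 0.0681, was -0.0919 with TMM factors. Beside Fisher's exact test the log2 value was 0.33, but this compares shares of samples hit without regard to insertions per sample. Rad51b between SB tails and tumours was not tested in the main setting. Its log2 change there was 0.168 with no minimum of insertions and -1.02 with the RefSeq body, without a call in either. The ratio of observed to expected insertions lay on the other side of 1 in at least 1 alternative for 7 of the 9 members in PB tumours (all but Wrn and Recql), 1 in PB tails, 4 in SB tumours and 2 in SB tails, and the order of the PB groups in insertions per sample turned with at least 10 reads. The causes were not tested.

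Counts of called genes moved by more than 1.5 times. In PB tumours 1094 became 632 with the exact Poisson test, 2755 with Benjamini-Hochberg correction, 485 by presence, 469 with at least 10 reads and 636 with motif sites inside genes. In the same order, 267 in PB tails became 81, 822, 90 and, with motif sites inside genes, 147. In SB tumours 93 became 33, 303, 17 and 58, and in SB tails 45 became 13, 164, 9 and 25, and 77 with the gene column. Between PB tumours and tails, 147 became 91 with DESeq2, 7 with Fisher's exact test, 71 with no minimum of insertions, 33 with joined and 28 with separated names only. For SB, 9 became 2 with DESeq2 and 1 with Fisher's exact test. The interaction called 0 genes by edgeR (391 at an unadjusted p below 0.05) and 1 with at least 10 reads. No paired analysis was possible because the numbers of samples only name them and pair no tumour with a tail.

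Depth limits the small genes most. In PB tumours a call needed 28 insertions in Wrn and 6 in Rmi1, where 11.4 and 0.761 were expected, and in SB tumours 13 and 3. A count of 0 allows 6.23 insertions per 100000 in PB tails and 1.91 in PB tumours, so the absence of insertions in Blm, Palb2 and Brca2 from 12 tails allows rates above those of PB tumours. The PB tumour rate of Atm, 7.01, lay above 6.23, with an exact interval of the ratio that includes equality. Without PB tumour 30 that rate lay below 6.23.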
